A study of Caenorhabditis elegans with 12 samples.

Results

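The comparison described here was between nuo-6; itr-1 double mutants and itr-1 single mutants of the nematode Caenorhabditis elegans. It asked what a complex I mutation does to the transcriptome of animals whose inositol trisphosphate (InsP3) receptor is already impaired. Of 46926 genes in the deposited expression table, 14889 had at least 1 TPM (a level scaled for transcript length and for the library's total) in at least 3 of the 6 libraries compared, and these genes were tested. Whole worms at the L4 stage, the last larval stage, were used throughout. The cultures were age-matched by bleaching and fed HT115 E. coli with an empty vector. The 3 control libraries were from itr-1(sa73) animals and the other 3 from nuo-6(qm200); itr-1(sa73) animals. Both groups therefore carry the itr-1 allele, and their labels differ only in nuo-6. The series also holds 3 N2 (wild-type) and 3 nuo-6(qm200) libraries, used here to estimate the spread and to set the nuo-6 effect of each background beside the other. Replicates are labelled as biological replicates, with nothing more on how far apart they were grown, so the p-values measure only the spread between these samples.

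Complex I is the first enzyme of the mitochondrial respiratory chain, and nuo-6 encodes one of its accessory subunits. Worms with a mild, inherited complex I defect grow slowly, live long and switch on stress programmes, among them the mitochondrial unfolded protein response. The InsP3 receptor, encoded in the worm by itr-1, is the channel of the endoplasmic reticulum that releases calcium into the cytosol when InsP3 binds. It sits near mitochondria and drives rhythmic gut contractions, ovulation and epidermal movements. Both alleles are known as missense mutations, so the transcript level of either gene does not check the labels. The itr-1 transcript was at 31.8, 25.4 and 23.9 TPM in itr-1 and 32.3, 34.6 and 34.1 TPM in the double mutant. For nuo-6 itself the levels were 290.1, 265 and 285 TPM in itr-1 and 325, 288 and 314 TPM in the double mutant. The 3 double mutant libraries lay above the 3 itr-1 libraries for the itr-1 transcript and overlapped with them for nuo-6. The log2 fold of the itr-1 transcript, 0.32 ± 0.12 (adjusted p = 0.0585), missed the threshold of 0.05, as did that of nuo-6 at 0.14 ± 0.06 (adjusted p = 0.0625). All folds are differences of log2(TPM + 1) with their standard error over 3 against 3 libraries, the double mutant minus itr-1 unless stated, and adjusted p-values are from limma with Benjamini-Hochberg adjustment over the 14889 genes.

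TPM keeps no depth, so the number of reads behind a value is unknown. Libraries of one strain correlated at 0.983 to 0.991 (itr-1) and 0.975 to 0.987 (double mutant) across the tested genes, against 0.921 to 0.964 between the strains. All 28 marker genes of intestine, body wall muscle, pharynx, neurons, epidermis and germ line examined were above 5 TPM in all 6 libraries, the lowest being che-14 at 5.15 TPM. The library labelled replicate 2 stood apart in both strains by its content of oocyte and early embryo transcripts. The mean log2(TPM + 1) of those genes was 5.89 in itr-1 replicate 2 against 4.94 and 4.78 in replicates 1 and 3, and 5.58 in double mutant replicate 2 against 4.86 and 4.30. Replicate 2 was also the highest in N2 (4.17 against 3.35 and 3.57) and, by less, in nuo-6 (4.72 against 4.51 and 4.61). These values move with several results below, and counts without the libraries numbered 2 are given beside them where they differ by more than 1.5 times.

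Of the 14889 genes, 6895 (46.3%) passed the test, 4428 of them (29.7%) higher and 2467 (16.6%) lower in the double mutant. At least 2-fold changes were fewer, at 956 genes (6.42%), of which 712 (4.78%) rose and 244 (1.64%) fell. The libraries of the 2 strains did not overlap for 7690 genes (51.6%). The excess of rises depended on scale. The median log2 fold of all genes was 0.09. When libraries were scaled by the median of ratios the median was 0.00, with 3232 genes higher and 3394 lower, and with quantile normalization 3235 were higher and 3528 lower. For folds near 0.1 the direction therefore depends on the scale, and counts for each gene group are given on the deposited and on the rescaled (median-of-ratios) values. Deposited counts are to be read against the 29.7% higher and 16.6% lower among all genes. By chromosome, rises made up between 23.7% (chromosome I) and 35.5% (chromosome V) of tested nuclear genes. Falls were 8.37% of genes on the X chromosome and at least 14.7% on each of the 5 autosomes.

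Of the 12 largest rises 4 were in the enzyme genes cyp-14A4, cyp-13A7, gst-14 and acdh-2, of families that act on foreign compounds or fatty acids. All 4 were below 1 TPM in each itr-1 library, so they passed the filter through the double mutant alone. The cytochrome P450 gene cyp-14A4 (WBGene00011009) had 0.628, 0.464 and 0.426 TPM in itr-1 and 58.0, 41.0 and 53.7 TPM in the double mutant. The acyl-CoA dehydrogenase gene acdh-2 (WBGene00015894) had 0.566, 0.765 and 0.892 TPM in itr-1 and 45.4, 39.3 and 41.7 TPM in the double mutant. The glutathione S-transferase gene gst-14 (WBGene00001762) had 0.514, 0.208 and 0.597 TPM in itr-1 and 25.7, 15.2 and 31.2 TPM in the double mutant. Every double mutant library lay far above every itr-1 library for these 3 genes, whose log2 folds were 5.09 ± 0.15 (adjusted p = 1.93e-08), 4.63 ± 0.23 (adjusted p = 3.74e-07) and 4.07 ± 0.25 (adjusted p = 1.04e-06). A further P450 gene, cyp-13A7, went from 0.277, 0.146 and 0.156 TPM to 30.9, 15.7 and 21.9 TPM, a log2 fold of 4.27 ± 0.29 (adjusted p = 2.23e-06). The C-type lectin gene clec-17, of a family of secreted sugar-binding proteins, went from 1.21, 0.654 and 1.68 TPM to 37.5, 23.6 and 39.5 TPM (log2 fold 3.98 ± 0.21, adjusted p = 4.68e-07). Here too no library of one strain reached the range of the other. The beta-tubulin gene tbb-6 (WBGene00006539) was the most abundant of the 12, at 22.5, 20.2 and 18.8 TPM in itr-1 and 195, 194 and 202 TPM in the double mutant, and was tightly grouped within each strain (log2 fold 3.21 ± 0.10, adjusted p = 2.75e-08). The cuticle collagen gene dpy-17, which shapes the body wall, had 0.501, 0.914 and 0.917 TPM in itr-1 and 16.0, 13.2 and 15.6 TPM in the double mutant (log2 fold 3.17 ± 0.18, adjusted p = 6.5e-07). The cation-transporting ATPase gene catp-3 had 3.999, 5.80 and 4.60 TPM in itr-1 and 39.9, 69.8 and 64.9 TPM in the double mutant (log2 fold 3.32 ± 0.22, adjusted p = 1.59e-06). The claudin-like gene clc-27 had 0.659, 0 and 0.230 TPM in itr-1 and 13.01, 9.15 and 13.4 TPM in the double mutant (log2 fold 3.32 ± 0.22, adjusted p = 1.77e-06), with 1 itr-1 library listed at 0. Of the other 3 genes, rab-11.2, a small GTPase of membrane traffic, had 0.911, 0.671 and 2.03 TPM in itr-1 and 57.6, 21.2 and 34.7 TPM in the double mutant (log2 fold 4.08 ± 0.40, adjusted p = 2.46e-05). The Skp1-related gene skr-17, whose family serves in ubiquitin ligases, and the sperm gene msp-19 are described with their neighbours further on.

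**Figure D1:**
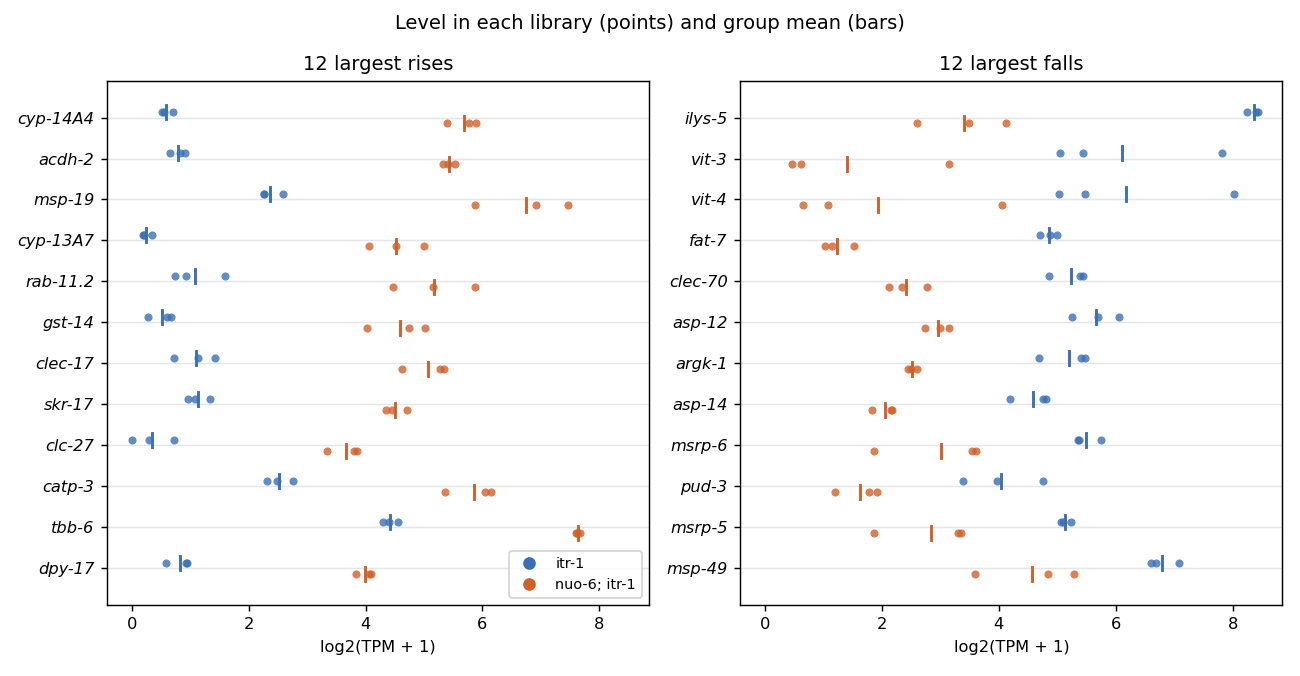
Level of the 12 genes with the largest rises (left) and the 12 with the largest falls (right) in each of the 3 itr-1 (blue) and 3 nuo-6; itr-1 (orange) libraries, on a log2(TPM + 1) axis; points are libraries and short bars are group means. By the rule that chose them no library of one strain lies in the range of the other, and the spread within a strain is widest for vit-3 and vit-4.

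The largest falls took in gut enzymes, yolk proteins and sperm transcripts. The invertebrate lysozyme gene ilys-5 (WBGene00017691), whose family digests bacterial walls, had 302, 344 and 337 TPM in itr-1 and 5.04, 16.4 and 10.2 TPM in the double mutant. The delta-9 desaturase gene fat-7 (WBGene00001399), which makes monounsaturated fatty acids in the intestine, had 30.9, 28.3 and 25.2 TPM in itr-1 and 1.21, 1.88 and 1.03 TPM in the double mutant. All 3 double mutant libraries were below all 3 itr-1 libraries for both genes, with log2 folds of -4.96 ± 0.32 (adjusted p = 1.59e-06) and -3.63 ± 0.17 (adjusted p = 2.61e-07). The lectin gene clec-70 (WBGene00021581) had 41.0, 28.1 and 42.6 TPM in itr-1 and 3.36, 4.09 and 5.85 TPM in the double mutant. The aspartyl protease gene asp-12 (WBGene00017678) had 65.8, 37.1 and 50.7 TPM in itr-1 and 6.93, 5.67 and 7.90 TPM in the double mutant. These 2 genes were lower in every double mutant library, by log2 folds of -2.82 ± 0.19 (adjusted p = 1.68e-06) and -2.71 ± 0.20 (adjusted p = 3.59e-06). The related protease gene asp-14 went from 27.0, 17.3 and 26.0 TPM to 2.54, 3.53 and 3.43 TPM (log2 fold -2.54 ± 0.27, adjusted p = 4.15e-05). The arginine kinase gene argk-1, whose product buffers ATP, went from 41.6, 43.5 and 24.9 TPM to 4.45, 4.63 and 5.09 TPM (log2 fold -2.68 ± 0.25, adjusted p = 1.9e-05). For pud-3, of a family named for proteins that rise in a gain-of-function mutant of the insulin receptor daf-2, levels were 14.6, 9.40 and 26.1 TPM in itr-1 and 1.28, 2.43 and 2.75 TPM in the double mutant (log2 fold -2.41 ± 0.35, adjusted p = 2.98e-04). The genes msrp-6 and msrp-5 fell by 2.49 and 2.29 on the log2 scale, with double mutant levels of 11.2, 10.7 and 2.63 TPM and 8.83, 9.23 and 2.65 TPM against 40.5, 52.5 and 39.9 TPM and 33.2, 36.5 and 32.6 TPM in itr-1. The major sperm protein gene msp-49 had 95.7, 134 and 102 TPM in itr-1 and 27.6, 38.2 and 11.1 TPM in the double mutant (log2 fold -2.21 ± 0.34, adjusted p = 4.41e-04). In msrp-6, msrp-5 and msp-49 double mutant replicate 3 was the lowest library.

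Genes of the mitochondrial unfolded protein response, through which damaged mitochondria call up nuclear chaperones and proteases, rose in the double mutant. Of 18 tested, 12 rose and 0 fell (11 and 0 with median-of-ratios scaling, 11 and 2 with quantile normalization), with a median log2 fold of 0.48 against 0.09 for all genes. The transcription factor that directs the response, atfs-1, had 37.1, 42.5 and 43.7 TPM in itr-1 and 84.8, 85.3 and 96.6 TPM in the double mutant. The mitochondrial thioredoxin gene trx-2 had 93.9, 87.6 and 91.5 TPM in itr-1 and 181, 169 and 185 TPM in the double mutant. The import channel gene timm-23 had 137, 124 and 133 TPM in itr-1 and 238, 208 and 243 TPM in the double mutant. The strains did not overlap for any of the 3, and the log2 folds were 1.09 ± 0.08 (adjusted p = 2.47e-06), 0.96 ± 0.05 (adjusted p = 4.97e-07) and 0.80 ± 0.06 (adjusted p = 4.81e-06). Genes for mitochondrial dynamics and mitophagy moved the same way, 14 of 21 rising and 0 falling (13 and 3 with median-of-ratios scaling; median 0.42). Among them stl-1, a stomatin-like protein of the inner membrane, had 60.5, 60.4 and 57.3 TPM in itr-1 and 145, 127 and 139 TPM in the double mutant (log2 fold 1.19 ± 0.06, adjusted p = 5e-07). The allophagy adaptor gene allo-1 and the p62 homologue sqst-1, both of which mark cargo for autophagy, rose by 1.24 and 1.38 on the log2 scale. Without double mutant replicate 2, 2 of these genes fell, and 1 fell without itr-1 replicate 3 or without the libraries numbered 2.

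Respiratory chain genes rose by small amounts, and the nuclear ones less clearly once libraries were rescaled. In the list of 33 complex I genes encoded in the nucleus, 21 rose and 1 fell, with a median log2 fold of 0.17. With median-of-ratios scaling 7 rose and 1 fell. The subunit genes nuo-2, ndua-12 and nduf-6 led by adjusted p, with log2 folds of 0.36 ± 0.04 (adjusted p = 6.55e-05), 0.38 ± 0.04 (adjusted p = 6.79e-05) and 0.33 ± 0.04 (adjusted p = 1.93e-04). For nuo-2 the levels were 189, 189.6 and 194 TPM in itr-1 and 245, 236 and 255 TPM in the double mutant, so the strains were separate although close. Of 29 nuclear genes of complexes II to V, 17 rose and 3 fell (6 and 4 with median-of-ratios scaling; median 0.15). The succinate dehydrogenase genes sdhb-1 and mev-1 rose by 0.45 and 0.41, whereas asb-1, an ATP synthase subunit used in the germ line, fell by 0.54 (adjusted p = 3.88e-04). Genes of the mitochondrial DNA rose by more. Of 12 tested, 9 rose and 0 fell on both scales, with a median of 0.61. The cytochrome oxidase transcript COX1 was at 2766, 2445 and 2462 TPM in itr-1 and 5127, 5044 and 5070.1 TPM in the double mutant, above the itr-1 range in all 3 double mutant libraries (log2 fold 0.99 ± 0.06, adjusted p = 8.65e-07). COX2 and COX3 rose by 0.91 and 0.69. The libraries were poly(A)-selected, so levels of mitochondrial transcripts also depend on their tails. Mitochondrial ribosome genes split by scale, 14 of 70 rising and 3 falling as deposited but 6 rising and 11 falling with median-of-ratios scaling. Without itr-1 replicate 1, 0 fell, and without the libraries numbered 2, 1 fell. The small-subunit genes mrps-14, mrps-11 and mrps-30 led by adjusted p at 0.50, 0.50 and 0.44.

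In central metabolism, genes of sugar breakdown and of propionate breakdown mostly rose. Of 23 genes of glycolysis and gluconeogenesis, 19 rose and 1 fell (18 and 2 with median-of-ratios scaling, and 0 to 2 falls when single libraries were left out), with a median log2 fold of 0.58. The aldolase gene aldo-1 had 167, 162 and 176 TPM in itr-1 and 489, 488 and 538 TPM in the double mutant. Lactate dehydrogenase, ldh-1, which regenerates NAD+ without respiration, had 64.7, 59.7 and 62.1 TPM in itr-1 and 162, 162 and 166 TPM in the double mutant. The phosphoglycerate mutase gene ipgm-1 had 124, 129 and 124 TPM in itr-1 and 228, 220.3 and 237 TPM in the double mutant. In all 3 genes the double mutant libraries stood clear above itr-1, at log2 folds of 1.58 ± 0.06 (adjusted p = 6.34e-08), 1.38 ± 0.05 (adjusted p = 6.57e-08) and 0.86 ± 0.05 (adjusted p = 1.4e-06). All 13 genes of propionate breakdown rose (12 with median-of-ratios scaling; median 0.69). They included mce-1 and mmcm-1 of the vitamin B12-dependent route (0.83 and 0.71). They also included hphd-1 of the B12-independent shunt, at 42.0, 35.6 and 40.4 TPM in itr-1 and 106, 107 and 99.1 TPM in the double mutant (log2 fold 1.38 ± 0.15, adjusted p = 4.67e-05). Of 22 genes of the tricarboxylic acid and glyoxylate cycles 11 rose and 3 fell (6 and 4 after rescaling), with aco-2, mdh-1 and idhg-2 up by 0.59, 0.52 and 0.59. Without itr-1 replicate 1 or double mutant replicate 1, 1 of these genes fell. Methionine, folate and transsulfuration genes went down, 10 of 17 falling and 0 rising (11 and 0 after rescaling, and 1 rise without itr-1 replicate 1; median -0.24). The S-adenosylmethionine synthetase gene sams-3 had 83.8, 72.6 and 68.2 TPM in itr-1 and 41.7, 39.0 and 34.2 TPM in the double mutant. The cystathionine gamma-lyase gene cth-1 had 60.0, 57.4 and 43.2 TPM in itr-1 and 20.1, 21.95 and 23.1 TPM in the double mutant. Both were lower in every double mutant library (log2 folds -0.95 ± 0.09, adjusted p = 1.51e-05, and -1.25 ± 0.15, adjusted p = 7.43e-05). The serine hydroxymethyltransferase gene mel-32 fell by 0.34. Trehalose and glycogen genes included 7 that rose and 0 that fell of 11, but 2 and 2 after rescaling. This count was 4 without itr-1 replicate 1, itr-1 replicate 3 or double mutant replicate 3. The trehalose synthase gene tps-1 rose by 0.80, the trehalose phosphatase gene gob-1 by 0.39 and tps-2 by 0.39, the last not past the threshold after rescaling.

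Lipid genes were mixed. Of 42 beta-oxidation genes 19 rose and 6 fell (13 and 8 after rescaling; median 0.19), with the thiolase genes acaa-2 and kat-1 up by 0.64 and 0.49. Of 23 genes of fatty acid synthesis, desaturation and elongation 7 rose and 5 fell, which became 5 and 6 after rescaling. The deposited shares, 30.4% and 21.7%, were near those of all genes, 29.7% and 16.6%. The 5 falls became 3 without itr-1 replicate 1, double mutant replicate 1 or double mutant replicate 3. Within this group the desaturases of polyunsaturated fats went opposite to fat-7. The delta-12 desaturase gene fat-2 had 358, 308 and 324 TPM in itr-1 and 592, 521 and 614 TPM in the double mutant. The delta-5 desaturase gene fat-4 had 267, 265 and 275 TPM in itr-1 and 404, 465 and 429 TPM in the double mutant. Both were higher in each double mutant library than in any of itr-1 (log2 folds 0.80 ± 0.08, adjusted p = 2.02e-05, and 0.68 ± 0.06, adjusted p = 1.2e-05). Of 17 genes for fatty acid and lipid binding 9 rose and 4 fell (7 and 4 after rescaling). The secreted carrier gene far-3 had 38.2, 22.8 and 25.9 TPM in itr-1 and 143, 179 and 174 TPM in the double mutant. The gene lbp-8, for a lysosomal lipid chaperone, had 0.724, 0.524 and 0.314 TPM in itr-1 and 15.6, 8.97 and 13.3 TPM in the double mutant. These 2 genes and lbp-1 rose, by 2.50 ± 0.17 (adjusted p = 1.73e-06), 3.14 ± 0.25 (adjusted p = 6.05e-06) and 1.09 ± 0.09 (adjusted p = 8.31e-06).

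Detoxification and antioxidant genes rose far more often than they fell. Of 40 glutathione S-transferase genes tested of 44, 28 rose and 0 fell (24 and 0 after rescaling; median 0.61). Of 55 cytochrome P450 genes tested of 74, 37 rose and 4 fell (34 and 4; median 0.62). Of 57 UDP-glucuronosyltransferase genes tested of 67, 29 rose and 8 fell (26 and 9; median 0.38). Members below 1 TPM in itr-1, such as gst-14, cyp-14A4 and cyp-13A7, entered these counts through the double mutant alone. The standard oxidative stress reporter gene gst-4 had 32.0, 41.9 and 35.6 TPM in itr-1 and 123, 114 and 106 TPM in the double mutant (log2 fold 1.63 ± 0.13, adjusted p = 5.34e-06), and gst-33 rose by 2.13. Enzymes that oxidise or conjugate small molecules included cyp-33E2 and cyp-14A1, up by 1.92 and 2.44, and ugt-62, ugt-61 and ugt-19, up by 3.03, 2.41 and 2.57. A mixed list of antioxidant genes and genes linked to the transcription factor SKN-1 showed 17 rises and 0 falls of 20 tested (13 and 0; median 0.42). Mitochondrial superoxide dismutase, sod-3, had 3.93, 3.14 and 3.76 TPM in itr-1 and 16.0, 15.9 and 17.5 TPM in the double mutant, with all double mutant libraries above itr-1 (log2 fold 1.92 ± 0.09, adjusted p = 2.92e-07). The mitochondrial thioredoxin reductase gene trxr-2 and the extracellular superoxide dismutase gene sod-4 rose by 1.10 and 0.89. Of 12 tested genes induced by the insulin-pathway factor DAF-16, 5 rose and 1 fell on both scales, and 8 rose with the oocyte score as covariate. The metallothionein gene mtl-1 had 7.80, 3.64 and 5.69 TPM in itr-1 and 31.8, 32.5 and 30.2 TPM in the double mutant (log2 fold 2.32 ± 0.24, adjusted p = 3.31e-05), and the catalase gene ctl-1 rose by 0.72.

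Genes of the hypoxia factor HIF-1 and of hydrogen sulfide handling rose in 8 of 13 cases, with 0 falls (7 and 0 after rescaling; median 0.37). The cysteine synthase-like gene cysl-2 had 65.1, 56.3 and 64.8 TPM in itr-1 and 379.7, 353 and 465 TPM in the double mutant. The sulfide:quinone oxidoreductase gene sqrd-1 had 3.55, 4.29 and 4.03 TPM in itr-1 and 18.9, 22.1 and 21.9 TPM in the double mutant. The nuclear receptor gene nhr-57, a standard HIF-1 target, had 3.27, 3.08 and 2.94 TPM in itr-1 and 14.6, 10.6 and 14.9 TPM in the double mutant. Each of the 3 was higher in every double mutant library, with log2 folds of 2.66 ± 0.12 (adjusted p = 2.69e-07), 2.15 ± 0.12 (adjusted p = 8.13e-07) and 1.80 ± 0.14 (adjusted p = 4.78e-06). Autophagy genes rose in 21 of 29 cases, with 0 falls (12 and 0 after rescaling, and 13 and 0 without double mutant replicate 3; median 0.38). The lipid kinase gene vps-34 and the core gene atg-16.2 rose by 0.71 and 0.66. The cytosolic heat shock response did not follow. Of 26 genes 1 rose and 10 fell (0 and 11), and the median was 0.02. The 1 rise was 0 to 3 when single libraries were left out (3 without itr-1 replicate 2, and 0 without itr-1 replicate 1, itr-1 replicate 3 or double mutant replicate 3) and 5 without the libraries numbered 2. The constitutive chaperone genes hsp-1 and hsp-12.2 and the co-chaperone gene sti-1 were the leading falls, at -0.38 ± 0.06 (adjusted p = 5.88e-04), -0.37 ± 0.05 (adjusted p = 2.07e-04) and -0.42 ± 0.08 (adjusted p = 0.0015). In the endoplasmic reticulum, the organelle that holds the InsP3 receptor, 6 of 24 unfolded protein response genes rose and 5 fell, a balance that turned to 3 and 7 after rescaling. The deposited shares, 25% and 20.8%, were near the 29.7% and 16.6% of all genes. The 5 falls became 3 without the libraries numbered 2, itr-1 replicate 3, double mutant replicate 1 or double mutant replicate 2. The translocon genes sec-61.A and sec-61.G fell by 0.71 and 0.69, while the choline kinase gene ckb-2 had 26.5, 51.2 and 27.4 TPM in itr-1 and 112, 126 and 145 TPM in the double mutant (log2 fold 1.90 ± 0.23, adjusted p = 1.14e-04).

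**Figure D2:**
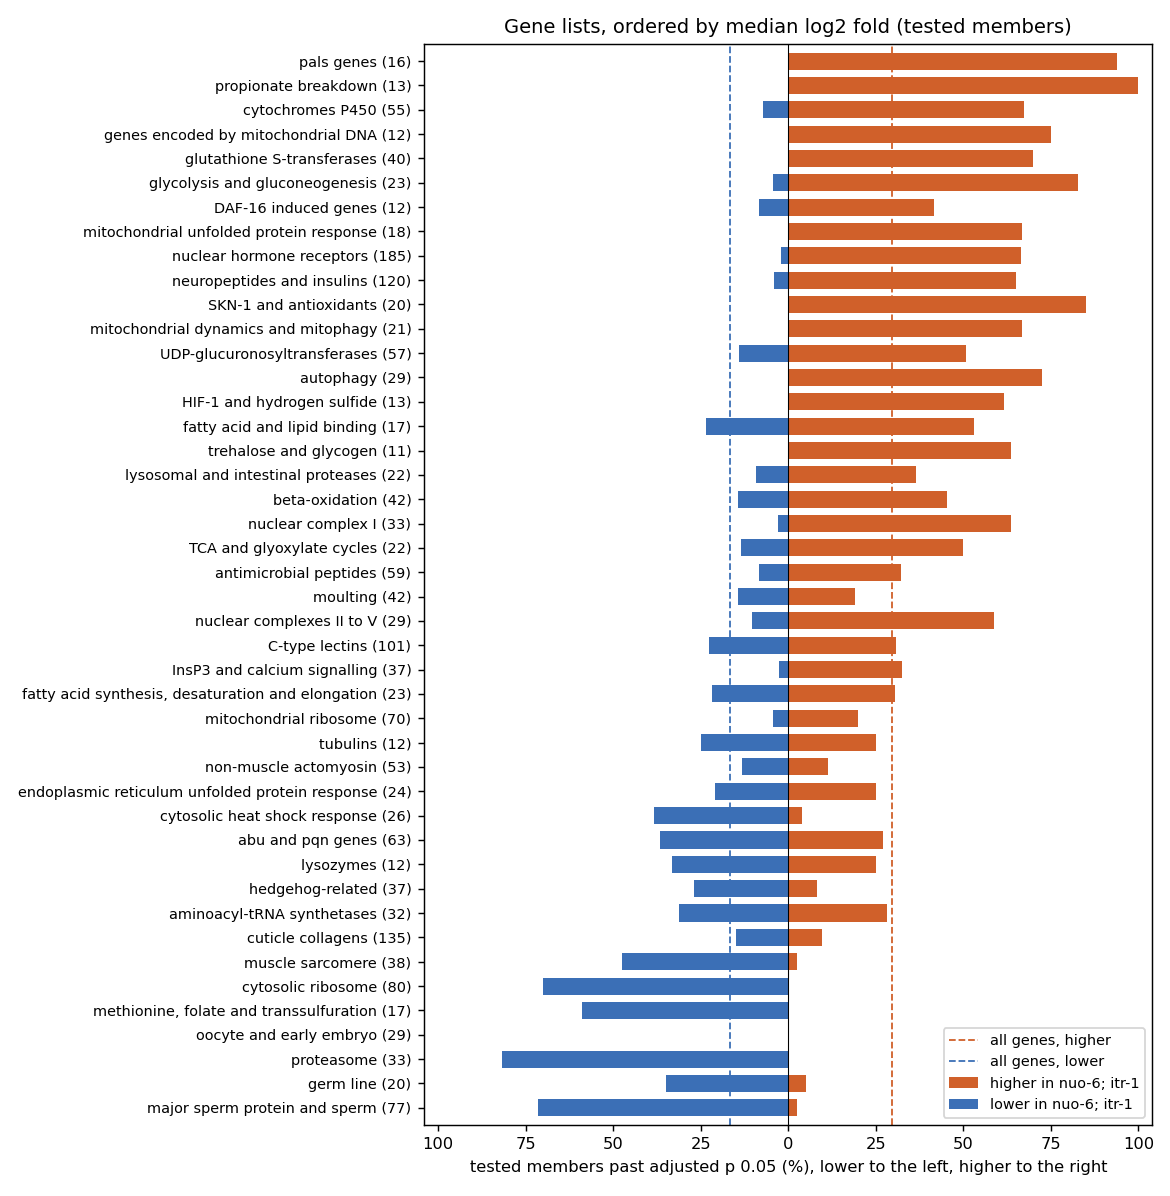
Share of the tested members of each gene list that passed adjusted p 0.05, higher (orange, right) or lower (blue, left) in nuo-6; itr-1 against itr-1, on the deposited scale; lists with at least 10 tested members are ordered by median log2 fold, with the number tested in brackets, and dashed lines mark 29.7% and 16.6%, the shares over all genes. The lists of propionate breakdown, pals genes, and SKN-1 and antioxidants have the largest shares of rises, and the proteasome, sperm and cytosolic ribosome lists the largest shares of falls.

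Ribosomal protein and proteasome genes of the cytosol fell by small steps, in numbers that depended on the scale for the ribosome. Of 80 cytosolic ribosomal protein genes 0 rose and 56 fell, with a median log2 fold of -0.17. The falls numbered 72 with median-of-ratios scaling and 26 with quantile normalization, and 35 when only the 6 libraries compared were fitted. A further scaling, in which TPM were re-closed without these genes, gives them no value. The most abundant of the leading members, rpl-28, was at 3151, 3185 and 3343 TPM in itr-1 and 2569, 2512 and 2649.7 TPM in the double mutant, lower in each double mutant library (log2 fold -0.32 ± 0.04, adjusted p = 1.17e-04). The paralogues rpl-11.1 and rpl-42 fell by 0.50 and 1.18. Levels of rpl-42 were low, at 4.54, 4.30 and 3.37 TPM in itr-1 and 1.53, 1.35 and 0.846 TPM in the double mutant. Of 33 proteasome genes 0 rose and 27 fell (33 with median-of-ratios scaling; median -0.26). The subunit genes pas-4, pbs-2 and rpn-5 led by adjusted p, at -0.40 ± 0.05 (adjusted p = 7.23e-05), -0.41 ± 0.05 (adjusted p = 1.49e-04) and -0.41 ± 0.06 (adjusted p = 2.75e-04). Aminoacyl-tRNA synthetases divided, 9 of 32 rising and 10 falling (9 and 16 after rescaling, and 9 and 6 without the libraries numbered 2). The mitochondrial enzymes nars-2 and sars-2 rose by 0.62 and 0.47, and the lysine enzyme kars-1 fell by 0.44.

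Calcium and actomyosin genes were examined because the InsP3 receptor acts on both. Of 37 genes of InsP3 and calcium signalling 12 rose and 1 fell, where 29.7% and 16.6% of all genes did, and 6 rose and 3 fell after rescaling (median 0.13). Phospholipase C enzymes make InsP3, and of these plc-2 had 12.5, 10.8 and 11.5 TPM in itr-1 and 22.1, 19.2 and 21.8 TPM in the double mutant. Another, egl-8, had 27.0, 26.8 and 27.1 TPM in itr-1 and 35.1, 33.9 and 36.9 TPM in the double mutant. Both rose (log2 folds 0.81 ± 0.10, adjusted p = 1.24e-04, and 0.38 ± 0.06, adjusted p = 5.22e-04), as did micu-1, the gatekeeper of the mitochondrial calcium uniporter (log2 fold 0.45 ± 0.07, adjusted p = 4.92e-04). In the list of 53 genes for non-muscle actomyosin, 6 rises and 7 falls were called on the deposited scale and 1 rise and 11 falls after rescaling, with a median of 0.03. The 6 rises became 3 without the libraries numbered 2 and without itr-1 replicate 2, itr-1 replicate 3, double mutant replicate 1 or double mutant replicate 3. The 7 falls became 4 without double mutant replicate 3. The 3 members with the smallest adjusted p were actins, act-2, act-1 and act-5, which fell by 0.57, 0.23 and 0.35. In RNA of whole worms these falls cannot be assigned to non-muscle cells. The actins share much of their sequence, so the authors' counting could split reads between them, and act-5 is the actin of the gut brush border.

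Sarcomere genes fell more often than they rose, and neuropeptide genes rose more often than they fell. Of 38 sarcomere genes 1 rose and 18 fell (0 and 24 after rescaling; median -0.11), and 11 fell without the libraries numbered 2 and 10 when only the 6 libraries compared were fitted. The troponin T gene mup-2 had 717, 716 and 739 TPM in itr-1 and 478, 488 and 470.3 TPM in the double mutant. The troponin I gene tni-1 had 184, 156 and 178 TPM in itr-1 and 115, 105 and 119.3 TPM in the double mutant. The gene dim-1, for an immunoglobulin-domain protein of muscle, had 389.9, 376 and 411 TPM in itr-1 and 304, 297 and 302 TPM in the double mutant. All 3 were lower in each double mutant library (log2 folds -0.59 ± 0.04, adjusted p = 1.04e-06, -0.60 ± 0.07, adjusted p = 5.13e-05, and -0.38 ± 0.05, adjusted p = 9.79e-05). The summed level of 4 body wall muscle markers was 1777 to 1823 TPM in itr-1 and 1554 to 1593 TPM in the double mutant. Of 120 neuropeptide and insulin genes tested of 140, 78 rose and 5 fell (54 and 6 after rescaling; median 0.44). The 5 falls became 3 without itr-1 replicate 1 or double mutant replicate 3. The insulin gene ins-4 had 5.55, 5.34 and 6.13 TPM in itr-1 and 10.4, 11.3 and 14.2 TPM in the double mutant. The sleep-promoting peptide gene flp-11 had 50.03, 48.3 and 51.5 TPM in itr-1 and 74.0, 66.7 and 76.1 TPM in the double mutant. These and nlp-49 rose by 0.95 ± 0.11 (adjusted p = 7.89e-05), 0.52 ± 0.06 (adjusted p = 9.79e-05) and 0.68 ± 0.07 (adjusted p = 3.81e-05). The 5 neuronal markers summed to 387 to 421 TPM in itr-1 and 529 to 579 TPM in the double mutant, so they moved with the peptides. The 5 intestinal markers summed to 1769 to 1827 TPM and 1443 to 1631 TPM. Most of these sums was the actin gene act-5, at 912 to 1263 TPM over the 6 libraries, so they mainly follow the fall of that gene. In RNA of whole worms fewer cells of a type and less RNA per cell cannot be told apart, and the part of tissue share in these results was not tested. Nuclear hormone receptor genes, which form the largest transcription factor family of the worm, rose in 123 of 185 tested cases and fell in 4 (100 and 4 after rescaling; median 0.46). The xenobiotic and lipid receptor gene nhr-8 had 14.5, 12.98 and 13.8 TPM in itr-1 and 37.0, 31.7 and 36.4 TPM in the double mutant (log2 fold 1.29 ± 0.10, adjusted p = 3.8e-06), and nhr-61 and nhr-210 rose by 3.02 and 1.69.

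Defence genes did not share a direction. Of 101 tested C-type lectin genes of 234, 31 rose and 23 fell, and the order turned to 26 and 27 after rescaling. As deposited 30.7% rose and 22.8% fell, near the 29.7% and 16.6% of all genes. Besides clec-17 and clec-70, clec-71 had 2.59, 2.34 and 2.70 TPM in itr-1 and 0.230, 0.326 and 0.285 TPM in the double mutant (log2 fold -1.47 ± 0.09, adjusted p = 8.65e-07). Lysozyme genes showed 3 rises and 4 falls of 12 on both scales, with lys-2 and ilys-4 up by 1.07 and 1.07 against the fall of ilys-5. Of 59 tested antimicrobial peptide genes of 89, 19 (32.2%) rose and 5 (8.47%) fell (18 and 9 after rescaling). The saposin-like gene spp-1 had 109, 94.2 and 111 TPM in itr-1 and 215, 205 and 233 TPM in the double mutant (log2 fold 1.05 ± 0.10, adjusted p = 1.76e-05), whereas spp-17 and fipr-11 fell by 1.11 and 1.12. The pals genes, several of which answer infection by microsporidia and viruses, mostly rose. Of 16 tested of 38, 15 rose and 0 fell on both scales, with a median of 1.11. A low-level gene could pass the filter through 1 strain alone, so members that rose may be over-represented among those tested. Levels were low, with pals-14 at 2.83, 3.58 and 2.40 TPM in itr-1 and 17.1, 12.1 and 11.4 TPM in the double mutant (log2 fold 1.87 ± 0.18, adjusted p = 2.39e-05), and pals-32 and pals-16 rose by 1.55 and 1.18. Of 22 lysosomal and intestinal proteases 8 rose and 2 fell (5 and 3 after rescaling), with asp-8 and cpr-2 up by 1.68 and 1.32 against asp-12.

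Yolk and most sperm transcripts were lower in the double mutant, with wide spread between libraries. Vitellogenins, the yolk proteins that the gut makes from the L4-to-adult switch onward, fell in 6 of 6 cases on both scales, with a median log2 fold of -3.45. Without itr-1 replicate 2, double mutant replicate 1 or double mutant replicate 3 the test called 3 of the 6. The gene vit-2 had 213, 1108 and 257 TPM in itr-1 and 31.1, 270.1 and 27.98 TPM in the double mutant. The gene vit-3 had 32.2, 224 and 42.5 TPM in itr-1 and 0.376, 7.91 and 0.524 TPM in the double mutant. The replicate 2 library was the highest of its strain for both genes, and for vit-2 double mutant replicate 2 lay within the itr-1 range. The log2 folds were -2.64 ± 0.95 (adjusted p = 0.0411) and -4.70 ± 0.89 (adjusted p = 0.00172). The genes vit-1, vit-4 and vit-6 had folds of -3.32 ± 0.89 (adjusted p = 0.0112), -4.25 ± 1.02 (adjusted p = 0.00629) and -2.85 ± 0.92 (adjusted p = 0.0265). The call was lost for vit-6 without itr-1 replicate 2, double mutant replicate 1 or double mutant replicate 3 (adjusted p = 0.0958 to 0.0971). For vit-2 these libraries and 4 others each ended it (adjusted p up to 0.146). Several vitellogenin genes are close copies, so counts could be split between them. Of 77 sperm genes tested of 81, mostly major sperm proteins, 2 rose and 55 fell (2 and 60 after rescaling; median -0.85), with 33 falls without itr-1 replicate 2 and 29 when only the 6 libraries compared were fitted. Their summed level was 5286, 6791 and 4916 TPM in itr-1 replicates 1, 2 and 3 and 3102, 4382 and 1662 TPM in the double mutant. No double mutant library reached the lowest itr-1 library. The gene msp-45 had 123, 161 and 129 TPM in itr-1 and 32.1, 44.2 and 19.1 TPM in the double mutant (log2 fold -2.15 ± 0.25, adjusted p = 7.44e-05), while the sperm gene spe-48 was one of the 2 that rose, by 0.69. Major sperm protein genes are near-identical copies, and single members are uncertain for that reason.

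Oocyte and early embryo genes did not pass the test, 0 of 29 rising and 0 falling, with a median log2 fold of -0.25. By limma 2 fell without double mutant replicate 2, and 1 rose and 3 fell without the libraries numbered 2. With their own mean, the oocyte score, as a covariate 4 rose and 6 fell. Their summed level was 1487, 2915 and 1319 TPM in itr-1 and 1325, 2253 and 887 TPM in the double mutant, ranges that overlap. The cold-shock-domain gene cey-2 had 349.7, 567 and 308 TPM in itr-1 and 262, 398 and 190.4 TPM in the double mutant, with a log2 fold of -0.54 ± 0.27 (adjusted p = 0.132). The egg activation gene egg-5 and the P granule gene meg-1 had folds of -0.53 ± 0.33 (adjusted p = 0.213) and -0.73 ± 0.45 (adjusted p = 0.21). Of 20 germ-line genes 1 rose and 7 fell (1 and 12 after rescaling, 13 fell without double mutant replicate 2, and 11 with the oocyte score as covariate), with a median of -0.28. The P granule gene glh-4 had 37.6, 40.9 and 31.7 TPM in itr-1 and 11.7, 13.5 and 11.4 TPM in the double mutant. Another P granule gene, pgl-1, had 133, 140.4 and 118 TPM in itr-1 and 77.4, 90.4 and 66.5 TPM in the double mutant. Both were lower in each double mutant library (log2 folds -1.51 ± 0.10, adjusted p = 2.39e-06, and -0.74 ± 0.10, adjusted p = 2.52e-04), and the stem cell regulator gene fbf-2 fell by 0.48. All animals were collected as L4, a stage within which oocyte and yolk transcripts are known to appear late. Their part in the other results was not tested beyond a fit with the oocyte score as a covariate, in which 4989 genes were higher and 2711 lower.

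**Figure D3:**
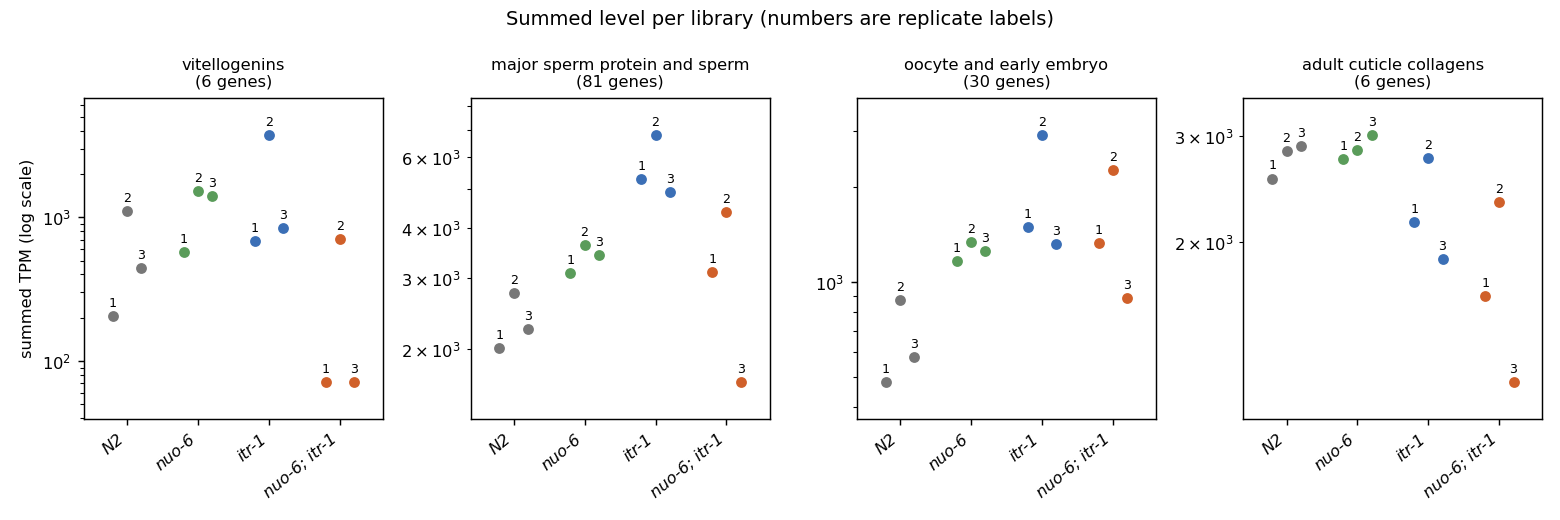
Summed TPM, on log axes, of vitellogenin, sperm, oocyte and early embryo, and adult collagen genes in each library of the 4 strains; digits are the replicate labels and the number of genes summed is in brackets. Replicate 2 is the highest library of itr-1 and of nuo-6; itr-1 in all 4 panels, and the sperm sum of nuo-6; itr-1 (1662 to 4382 TPM) lies below that of itr-1 (4916 to 6791 TPM).

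Cuticle genes went in both directions, and their counts moved with single libraries. Of 135 collagen genes tested of 175, 13 rose and 20 fell (11 and 34 after rescaling; median -0.11). With the oocyte score as covariate 25 rose. The falls numbered 33 without the libraries numbered 2, 12 without itr-1 replicate 1 and 10 without double mutant replicate 3. Besides dpy-17, col-158 rose by 2.30 and col-149 fell by 0.92. Of 6 adult collagen genes 1, bli-2, fell (log2 fold -0.42 ± 0.12, adjusted p = 0.0143), and 2 fell without itr-1 replicate 2 or double mutant replicate 2 and 4 without the libraries numbered 2. Of 42 moulting genes 8 rose and 6 fell (5 and 6 after rescaling). The 6 falls became 10 without the libraries numbered 2 and 3 without itr-1 replicate 1, itr-1 replicate 3, double mutant replicate 1 or double mutant replicate 3. The leading members went both ways, ptr-8 up by 0.86 and nas-36 and mlt-10 at -0.80 and -0.90. Of 37 tested hedgehog-related genes 3 rose and 10 fell (2 and 13). The falls became 16 without itr-1 replicate 2 and 6 without itr-1 replicate 1, itr-1 replicate 3, double mutant replicate 1 or double mutant replicate 3. The gene wrt-4 had 134, 91.0 and 119.1 TPM in itr-1 and 29.1, 42.2 and 28.5 TPM in the double mutant (log2 fold -1.76 ± 0.20, adjusted p = 5.88e-05), and grl-14 and wrt-3 rose by 1.04 and 1.08. Among the abu and pqn genes, many of which line the pharynx, 17 of 63 rose and 23 fell (8 and 26). The rises became 11 without the libraries numbered 2, 10 without itr-1 replicate 3 and 8 without double mutant replicate 3, and the falls 15 without the last. Here pqn-90 had 2.92, 3.10 and 3.06 TPM in itr-1 and 0.235, 0.0800 and 0 TPM in the double mutant (log2 fold -1.87 ± 0.10, adjusted p = 6.5e-07), and pqn-91 and abu-6 fell by 1.79 and 1.06. Of 12 tubulin genes 3 rose and 3 fell (3 and 4), the rises being tbb-6, tba-7 (1.22) and tba-9 (0.94).

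The same complex I mutation was then set beside its effect in animals with a wild-type InsP3 receptor. Those 2 contrasts share no library. On the same 14889 genes, nuo-6 against N2 changed 7844 (52.7%), of which 5607 (37.7%) were higher and 2237 (15%) lower. Genes called in both backgrounds numbered 4801, which is 69.6% of the calls in the itr-1 background and 61.2% of those in the wild-type background. Of these, 4623 (96.3%) had the same direction and 178 the opposite one. Across the 14889 genes the 2 log2 folds correlated with Pearson's r = 0.58, and the least-squares slope of the itr-1 background on the wild-type background was 0.50. The points are genes measured in the same 12 libraries and are not independent, so this is a description. Scatter in the folds lowers such a slope by itself, so 0.50 does not measure the relative size of the 2 effects. Of the 712 genes at least 2-fold higher in the double mutant, 645 (90.6%) were also called higher in nuo-6 against N2. Of the 244 at least 2-fold lower, 103 (42.2%) were also called lower and 22 were called higher.

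**Figure D4:**
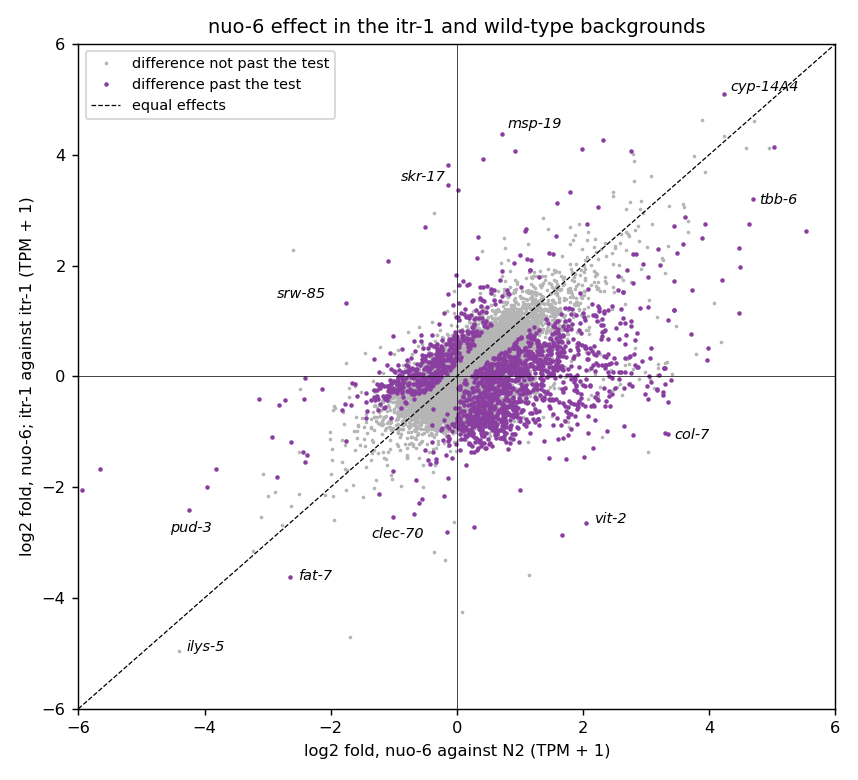
Each of the 14889 tested genes by its log2 fold in nuo-6 against N2 (horizontal) and in nuo-6; itr-1 against itr-1 (vertical), both on log2(TPM + 1); purple points passed the test of the difference between backgrounds and the dashed line marks equal effects. The least-squares slope of the vertical on the horizontal folds is 0.50, a value that scatter alone lowers. Of the 1802 purple genes 1254 lie below the line and 548 above.

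The difference between the effects in the 2 backgrounds was tested directly. It passed for 1802 genes (12.1%), with the effect higher in the itr-1 background for 548 (3.68%) and lower for 1254 (8.42%). For 5890 of the 6895 genes changed in the double mutant (85.4%) it did not pass, which does not show that the effects were equal. The split depended on scale and stage. Median-of-ratios scaling gave 985 higher and 1155 lower, quantile normalization 1065 and 976, and the fit with the oocyte score as covariate 171 and 617. When each of the 12 libraries was left out in turn, the counts ran from 205 to 759 higher and from 646 to 1860 lower. They were smallest without nuo-6 replicate 2 (205 and 646), nuo-6 replicate 3 (232 and 669), double mutant replicate 1 (247 and 795), N2 replicate 1 (248 and 676) and N2 replicate 3 (287 and 819). Without double mutant replicate 3 and without itr-1 replicate 2, 310 and 340 were higher, and without all libraries numbered 2, 348 were.

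Stress, metabolic and receptor groups varied in how many differences were called. Of the 18 genes of the mitochondrial unfolded protein response 12 rose in nuo-6 against N2 as well, and the difference passed for 1, in the lower direction. In glycolysis the rises were 19 in each background with 1 called difference. Among 185 nuclear hormone receptor genes 123 rose in each and 4 differed. Larger shares than the 12.1% of all genes differed in other groups. In the endoplasmic reticulum unfolded protein response 7 of 24 differed, all upward (3 without nuo-6 replicate 3 and 3 with the oocyte score as covariate). Of 40 glutathione S-transferase genes 8 differed upward and 2 downward (2 and 1 with the score, and 2 upward without nuo-6 replicate 3). Of 55 cytochrome P450 genes 9 differed upward and 6 downward (3 and 5 with the score, and 5 upward without itr-1 replicate 2 or nuo-6 replicate 2). Of 57 UDP-glucuronosyltransferase genes 2 differed upward and 7 downward (1 and 7 with the score, and 1 to 4 and 5 to 9 without single libraries). The mixed list of SKN-1 and antioxidant genes had 4 upward and 1 downward of 20, the HIF-1 and sulfide genes 3 upward of 13, and the DAF-16 genes 1 upward and 3 downward of 12. With the score these became 2 and 1, 2, and 0 and 3, and without single libraries the upward counts ran from 2 to 5, 2 to 4 and 0 to 1 and the DAF-16 downward count from 2 to 4. The nuo-6 effect was more positive in the itr-1 background for 5 of 13 propionate genes, hphd-1 among them. Levels themselves were lower in itr-1, where the 13 genes summed to 1119 to 1142 TPM against 1751 to 2223 TPM in N2. The double mutant sum was 1938 to 1989 TPM, within the N2 range. For hphd-1 the levels were 42.0, 35.6 and 40.4 TPM in itr-1 and 106, 107 and 99.1 TPM in the double mutant. They were 180.3, 117 and 184 TPM in N2 and 202, 166 and 196 TPM in nuo-6 (difference 1.13 ± 0.21, adjusted p = 0.00823). The 5 became 1 with the oocyte score as covariate and 3 without N2 replicate 1, itr-1 replicate 2 or 3, nuo-6 replicate 2 or 3, or double mutant replicate 1, and hphd-1 missed the threshold with the oocyte score as covariate (adjusted p = 0.0651). The oxidative stress gene gst-4 also had the larger rise in the itr-1 background, with 156, 131 and 122 TPM in N2 and 223, 170.4 and 179.6 TPM in nuo-6 (difference 1.15 ± 0.18, adjusted p = 0.00327). It started lower in itr-1, at 32.0, 41.9 and 35.6 TPM, and its double mutant levels of 123, 114 and 106 TPM did not exceed the N2 range. The glutathione S-transferase list summed to 1033 to 1061 TPM in itr-1, 1495 to 1675 TPM in the double mutant and 1667 to 2030 TPM in N2. The gene cysl-2 likewise rose more in the itr-1 background, with 81.5, 79.0 and 77.5 TPM in N2 and 158, 208 and 153 TPM in nuo-6 (difference 1.56 ± 0.18, adjusted p = 4.28e-04). In the other direction, tbb-6 went from 3.33, 4.33 and 2.97 TPM in N2 to 124, 112 and 111 TPM in nuo-6, a larger log2 rise than in the itr-1 background (difference -1.49 ± 0.15, adjusted p = 1.69e-04). The same held for mtl-1, at 0.625, 0.347 and 0.165 TPM and 37.8, 21.5 and 31.6 TPM (difference -2.16 ± 0.34, adjusted p = 0.00319), and for sod-3 (difference -0.77 ± 0.13, adjusted p = 0.00478). These genes started lower in N2 than in itr-1, where tbb-6 had 22.5, 20.2 and 18.8 TPM and mtl-1 7.80, 3.64 and 5.69 TPM. The double mutant levels were above nuo-6 for tbb-6 (195, 194 and 202 TPM), within its range for mtl-1 and below it for sod-3.

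Sperm, collagen, abu and pqn, and antimicrobial peptide genes had more lower than higher differences. So did all genes, with 1254 (8.42%) lower and 548 (3.68%) higher, or 1155 and 985 after rescaling. The rescaled lower and higher counts were 37 and 3 for sperm, 55 and 11 for collagen, and 20 and 3 for abu and pqn genes. They were 17 and 6 for antimicrobial peptide genes and 11 and 7 for C-type lectin genes. Of 63 abu and pqn genes 22 differed downward and 1 upward (19 and 0 with the oocyte score as covariate), of 59 antimicrobial peptide genes 18 and 5 (13 and 1), and of 101 C-type lectin genes 12 and 5 (12 and 0). When single libraries were left out, the upward antimicrobial peptide genes numbered 3 to 10, and the lectin genes 7 to 22 downward and 0 to 8 upward, each lowest without N2 replicate 1 among others. Of 77 sperm genes 18 rose and 8 fell in nuo-6 against N2, and the difference passed for 1 higher and 37 lower. The 37 became 10 without N2 replicate 1 or nuo-6 replicate 2, and ran up to 48. Collagen genes rose in 80 and fell in 30 of 135 cases in the wild-type background, and 59 differed downward and 7 upward (40 to 61 and 0 to 11 when single libraries were left out). The gene col-7 had 4.96, 27.4 and 8.06 TPM in N2, 105, 121 and 125 TPM in nuo-6, 77.0, 125 and 63.8 TPM in itr-1 and 50.4, 53.0 and 25.8 TPM in the double mutant. Its level thus rose in the wild-type background and did not pass in the itr-1 background (difference -4.38 ± 0.69, adjusted p = 0.00327). The adult collagen gene col-62 followed, at 10.6, 50.9 and 18.3 TPM in N2, 202, 232 and 234 TPM in nuo-6, 153, 239 and 137 TPM in itr-1 and 102, 109.9 and 53.4 TPM in the double mutant (difference -4.32 ± 0.65, adjusted p = 0.00256). For nspb-2, of a family of nematode-specific peptides, the levels were 4.40, 5.91 and 2.56 TPM in N2, 19.3, 23.3 and 23.3 TPM in nuo-6, 26.3, 25.1 and 20.7 TPM in itr-1 and 6.49, 11.9 and 9.88 TPM in the double mutant, opposite in direction (difference -3.46 ± 0.34, adjusted p = 1.69e-04). The yolk genes vit-2 and vit-6 had differences of -4.69 ± 1.34 (adjusted p = 0.0459) and -4.52 ± 1.30 (adjusted p = 0.0469). In N2 vit-2 stood at 37.7, 247 and 83.7 TPM and in nuo-6 at 213, 544 and 488 TPM. Each of these 2 differences was lost in 14 settings, 10 of them without a single library. The lectin gene clec-70 and the protease gene asp-12, which fell in the itr-1 background, had folds of -0.16 ± 0.19 (adjusted p = 0.497) and 0.27 ± 0.20 (adjusted p = 0.275) in the wild-type one (differences -2.66 ± 0.26, adjusted p = 1.69e-04, and -2.98 ± 0.28, adjusted p = 1.29e-04). The antimicrobial gene fipr-11 and the pharyngeal gene abu-6 fell in the itr-1 background and rose in the wild-type one, with differences of -2.72 ± 0.20 (adjusted p = 3.76e-05) and -2.83 ± 0.14 (adjusted p = 1.66e-06). The oocyte score moved with these groups, at 3.35 to 4.17 in N2, 4.51 to 4.72 in nuo-6, 4.78 to 5.89 in itr-1 and 4.30 to 5.58 in the double mutant, so it was higher in nuo-6 than in N2 and overlapped between the itr-1 strains. Beyond a fit of each gene with the score as covariate, its part in the differences was not tested. In that limma fit vit-2 and vit-6 missed the threshold (adjusted p = 0.193 and 0.231). With the score as covariate the sperm list had 1 higher and 9 lower differences and the collagens 0 and 50.

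Several genes with upward differences had patterns of level across the 4 strains that were unlike one another. The pud genes fell in nuo-6 against N2 in 6 of 6 cases but in 2 of 6 in the itr-1 background, and the difference passed for all 6, but for 0 by limma with the oocyte score as covariate. For pud-3 the levels were 46.4, 32.7 and 71.0 TPM in N2 and 1.56, 1.35 and 1.78 TPM in nuo-6, against 14.6, 9.40 and 26.1 TPM in itr-1 (difference 1.84 ± 0.49, adjusted p = 0.0349). This difference was lost in 11 settings, 8 of them without a single library of N2, nuo-6, itr-1 or the double mutant, and the 6 fell to 3 without nuo-6 replicate 2. The serpentine receptor gene srw-85 had 4.23, 4.61 and 3.08 TPM in N2, 0.708, 0.197 and 0.517 TPM in nuo-6, 15.6, 12.5 and 17.98 TPM in itr-1 and 41.2, 30.3 and 49.3 TPM in the double mutant, so that it fell in one background and rose in the other (difference 3.08 ± 0.29, adjusted p = 1.28e-04). The FMRFamide receptor family gene frpr-5 had 29.4, 27.4 and 17.3 TPM in N2, 16.51, 19.7 and 3.56 TPM in nuo-6, 13.9, 5.53 and 3.25 TPM in itr-1 and 32.0, 24.04 and 37.4 TPM in the double mutant (difference 3.17 ± 0.79, adjusted p = 0.0286). The double mutant and itr-1 did not overlap, but the rise missed the threshold without the libraries numbered 2 (adjusted p = 0.0511) and the difference missed it in 8 settings. Those were the fit with the oocyte score, that without the libraries numbered 2, and those without N2 replicate 1 or 2, itr-1 replicate 2 or 3, or double mutant replicate 1 or 3. The rise of rab-11.2 was likewise larger than in the wild-type background, where it had 0.261, 0.456 and 0.0720 TPM in N2 and 3.17, 0.545 and 1.06 TPM in nuo-6 (difference 3.16 ± 0.57, adjusted p = 0.00677). It was not past the threshold with the oocyte score as covariate (adjusted p = 0.0574).

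Both msp-19 and skr-17 were low in itr-1 and no other strain. The gene skr-17 (chromosome II, 7783517 to 7784654, build WBcel235) had 17.3, 21.2 and 18.3 TPM in N2, 17.98, 20.7 and 18.8 TPM in nuo-6, 1.53, 1.13 and 0.958 TPM in itr-1 and 20.9, 25.3 and 19.3 TPM in the double mutant. The sperm gene msp-19 (chromosome IV, 5260589 to 5260972) had 66.5, 80.9 and 64.4 TPM in N2, 101, 121 and 126 TPM in nuo-6, 3.79, 5.02 and 3.79 TPM in itr-1 and 119.3, 175 and 57.7 TPM in the double mutant. In both genes the 3 itr-1 libraries were below all 9 others, and the double mutant range overlapped that of N2. The log2 folds against itr-1 were 3.37 ± 0.13 (adjusted p = 5.79e-08) and 4.38 ± 0.30 (adjusted p = 2.48e-06), and the differences between backgrounds 3.35 ± 0.18 (adjusted p = 2.8e-06) and 3.67 ± 0.43 (adjusted p = 5.68e-04). Because msp-19 rose against the run of the other sperm genes, its neighbours were looked at after these values were seen. On one side, ttbk-2.1, a kinase gene of the tau tubulin kinase family, starts just before msp-19 and had 10.7, 13.3 and 10.7 TPM in N2, 10.0, 9.97 and 11.2 TPM in nuo-6, 1.88, 2.57 and 2.07 TPM in itr-1 and 9.15, 10.8 and 4.79 TPM in the double mutant. Its 3 itr-1 libraries were below all the others (log2 fold 1.48 ± 0.22, adjusted p = 3.42e-04). The next gene, F36H12.9, had 5.36, 6.40 and 4.28 TPM in itr-1 and 9.69, 13.5 and 6.04 TPM in the double mutant (log2 fold 0.71 ± 0.22, adjusted p = 0.0208), and this call was lost in 5 settings, among them those without itr-1 replicate 3 and without double mutant replicate 1 or 2. On the other side F36H12.5 and F36H12.4, starting 6.185 and 8.514 kb after it, were listed at 0 in all 3 itr-1 libraries. Their double mutant levels were 17.1, 18.7 and 8.87 TPM and 12.9, 20.4 and 8.36 TPM, and in N2 9.72, 15.02 and 12.4 TPM and 16.9, 17.5 and 22.3 TPM. A pseudogene in between, WBGene00018127, was also listed at 0 in itr-1 and had 5.98, 7.38 and 3.68 TPM in the double mutant. Another pseudogene there, WBGene00003445, had 5.11, 7.62 and 5.55 TPM in itr-1 and 3.16, 4.19 and 2.79 TPM in the double mutant. The flanking genes F36H12.10 and F36H12.3 had 14.8, 12.7 and 14.3 TPM and 19.5, 18.3 and 13.2 TPM in itr-1, not below the other strains. Across all genes with at least 1 TPM in all other libraries, 5 were at least 10-fold lower in each itr-1 library than in any of the other 9, which were skr-17, msp-19, F36H12.5, F36H12.4 and WBGene00018127. The same count was 11 for N2, 1 for nuo-6 and 0 for the double mutant. The gene itr-1 lies on the same chromosome IV, at 7675174 to 7696930. What sets these levels was not tested, and the rises of msp-19, ttbk-2.1, F36H12.5 and F36H12.4 are rises against itr-1 levels that the other 3 strains do not share.

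**Figure D5:**
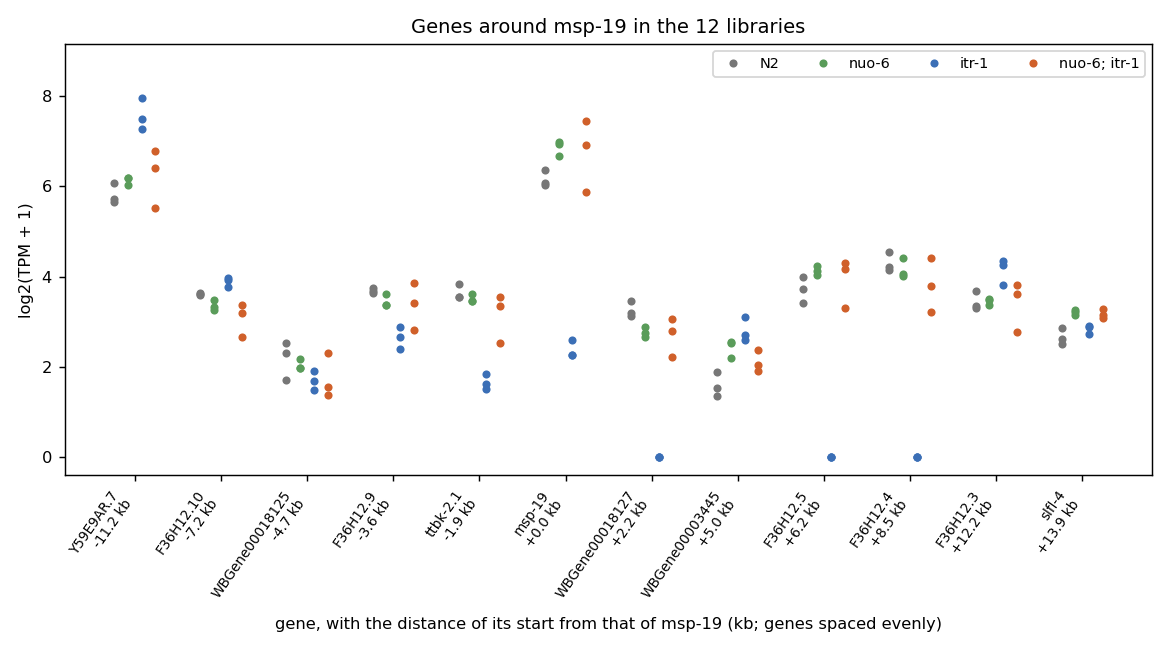
Level, as log2(TPM + 1), of msp-19 and its neighbouring genes in each library of N2, nuo-6, itr-1 and nuo-6; itr-1, ordered along chromosome IV with the distance of each start from that of msp-19. The 3 itr-1 libraries (blue) are at 0 for WBGene00018127, F36H12.5 and F36H12.4 and below all other libraries for ttbk-2.1 and msp-19, while the double mutant (orange) is not.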

How the data were processed

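RNA from whole L4 worms of 4 strains (12 libraries, 3 per strain) was made into stranded, poly(A)-selected libraries, per the labels' protocols. The authors deposited 1 table of TPM per gene and library, per the file headers. The submitters' processing notes name the build WBcel235. The aligner and the counting tool were not given in the sources used here. TPM sums to a fixed total, so a rise in abundant transcripts lowers all others, and it keeps no depth, so no counting interval can be given. All 46926 gene IDs were found in the Ensembl annotation of WBcel235, which gave names and positions. A gene was kept if 3 or more of the 6 libraries compared had 1 TPM or more (14889 genes). A gene could thus be kept through the libraries of 1 strain alone, the strain in which it was high. The values log2(TPM + 1) of all 12 libraries were fitted in 1 model with 1 mean per strain using limma 3.58.1 (R 4.3.3) with a mean-variance trend (8 residual degrees of freedom). The contrasts were the double mutant minus itr-1, nuo-6 minus N2 and the difference of these effects. Tests were two-sided, with Benjamini-Hochberg adjusted p under 0.05 called a change. The fit was tested on simulated data with known fold changes.

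The members and gene lists were chosen with earlier results of these data known. Named genes were the 12 largest rises and 12 largest falls among changed genes with a name other than a sequence name, a mean of 5 TPM or more in the higher group, no overlap between 3 and 3 libraries and at most 2 per family. They also included itr-1, nuo-6, from each list the 3 genes of smallest adjusted p, and the 5 largest positive and 5 largest negative differences between backgrounds with at least 5 TPM in the highest group and at most 2 per family. The neighbours of msp-19 were added after their values were seen. Alternatives were other pseudocounts, filters, scalings, variance settings, a replicate block, the mean of the oocyte and early embryo list as a covariate, and leaving out libraries. The setting without all libraries numbered 2 was chosen after seeing the data.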

Additional observations from a re-analysis of the deposited data

Results flagged for a closer look

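The effect of the nuo-6 mutation differed between the itr-1 and the wild-type background, by a direct test of the difference in limma, for 1802 genes and for 56 of the genes named above. Values here are the log2 effect in the itr-1 background minus that in the wild-type background, so a positive value is a more positive effect of nuo-6 in the itr-1 background. No explanation is weighed.

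Genes whose differences are given in the report were msp-19 (3.67), skr-17 (3.35), frpr-5 (3.17), rab-11.2 (3.16), srw-85 (3.08), pud-3 (1.84) and ttbk-2.1 (1.62) on the positive side. On the negative side they were vit-2 (-4.69), vit-6 (-4.52), col-7 (-4.38), col-62 (-4.32), nspb-2 (-3.46), asp-12 (-2.98), abu-6 (-2.83), fipr-11 (-2.72), clec-70 (-2.66) and clec-71 (-1.39). For msp-19, skr-17 and ttbk-2.1 the itr-1 libraries lay below all other libraries, those of the double mutant included. Their positive values rest on itr-1 levels that the other strains do not share, and what sets these levels was not tested.

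Among the named detoxification and stress genes that passed, most were positive, with cyp-13A7 at 1.96, cyp-14A4 at 0.86, cyp-33E2 at 0.77, gst-14 at 1.30, gst-4 at 1.15, gst-33 at 1.00, cysl-2 at 1.56 and ctl-1 at 0.45. Whole lists varied, and of the UDP-glucuronosyltransferase genes 2 differed upward and 7 downward. The stress genes tbb-6 at -1.49, mtl-1 at -2.16 and sod-3 at -0.77 were negative. Their log2 rises were larger against N2, where their levels were lower than in itr-1. The call was lost for cyp-14A4 in 10 settings, for gst-14 in 13 and for ctl-1 in 14. The limma fit with the oocyte score as covariate also lost cyp-13A7 and gst-33 (adjusted p = 0.0963 and 0.107).

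Among metabolic and lipid genes the values were 1.13 for hphd-1, 1.56 for lbp-8, 0.74 for fat-4, 0.61 for fat-2 and 0.33 for idhg-2, against -0.99 for fat-7 and -1.40 for far-3. The desaturases fat-2 and fat-4 thus differed upward and fat-7 downward. The idhg-2 call was lost in 13 settings. Calls for hphd-1, lbp-8 and fat-7 were lost in limma with the oocyte score as covariate (adjusted p = 0.0651, 0.114 and 0.126).

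Mitochondrial and translation genes had small negative values, -0.48 for mrps-14, -0.48 for allo-1, -0.31 for nars-2, -0.24 for nduf-6 and -0.79 for rpl-42. Those of nars-2, nduf-6 and rpl-42 were lost in 15, 14 and 10 settings, and that of allo-1 with the oocyte score as covariate. The troponin T gene mup-2 and the actin gene act-1 had -0.22 and -0.27, and were lost in 8 and 5 settings.

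Germ-line and sperm genes had -1.94 for msp-45, -1.65 for msp-49 and 0.33 for fbf-2, with msrp-6 at -1.81 and msrp-5 at -1.69. The msp-49, msrp-6, msrp-5 and fbf-2 calls were lost in 15, 16, 12 and 12 settings. Cuticle, moulting and gut genes had 0.92 for wrt-3, 0.77 for grl-14, 0.69 for bli-2, 1.29 for cpr-2, 0.64 for spp-1 and 1.53 for clc-27, against -1.23 for pqn-90, -0.86 for ptr-8 and -0.85 for nas-36. The wrt-3 and bli-2 calls were lost in 11 and 7 settings. Those of clc-27, spp-1 and ptr-8 were lost in limma with the oocyte score as covariate (adjusted p = 0.0854, 0.0917 and 0.0658).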

How the results depend on the processing

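Of 149 named genes that passed the test between the double mutant and itr-1, 143 kept their call in all 20 settings, and 0 changed sign. The genes that lost it in some setting were vit-2, vit-6, frpr-5, tps-2, bli-2 and F36H12.9. The counts of higher and lower genes stayed within 1.5 times of 4428 and 2467, except that 1547 were lower when the fit held only the 6 libraries compared, which have fewer residual degrees of freedom. Leaving out single libraries of the 2 strains gave 3600 to 4325 higher and 1780 to 2784 lower. The count of differences between backgrounds was less stable. Against 548 higher and 1254 lower, array weights gave 1151 and 2290, median-of-ratios scaling 985 higher, quantile normalization 1065 higher, the oocyte score as covariate 171 and 617, and leaving out all libraries numbered 2, 348 higher. The cause was not tested. Leaving out single libraries gave 205 to 759 higher and 646 to 1860 lower.

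Replicate numbers are shared between strains, but same-numbered itr-1 and double mutant libraries had correlated deviations in only some pairs (0.086, 0.526 and 0.467), and itr-1 replicate 1 correlated best with double mutant replicate 3 (0.152). Replicate 2 had the highest oocyte score of its strain in all 4 strains. With a replicate block 4648 genes were higher and 2741 lower, and 834 and 1889 differed between backgrounds. With 3 libraries per strain and no depth, small folds near the median of all genes are the least certain.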
